A study of Homo sapiens with 12 samples.

Results

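The combination of an oral kinase inhibitor, CS2164, with fractionated radiation was compared with the sum of the separate treatments in 12 tumour libraries, gene by gene. The measure was the contrast (CS2164_IR minus IR) minus (CS2164 minus control) on the log2 scale, that is, the response to CS2164 in irradiated tumours minus its response in unirradiated tumours. All 12 libraries of the series enter it, 3 in each of 4 groups, and 13521 of the 19988 genes of the deposited table passed a filter on low counts and were tested. Every tumour was a subcutaneous xenograft of Huh-7, an established human hepatocellular carcinoma line, in a BALB/c nude mouse (aged 6 weeks at the start), and dosing started once tumours averaged 150 to 200 mm3. The CS2164 group was gavaged daily with 10 mg/kg, the IR group received 2 Gy per day in 10 weekday fractions, and the CS2164_IR group both. Mice not given CS2164 were gavaged with its co-solvent, and the protocol states pentobarbital anaesthesia for all mice before radiation. Nude mice lack T cells, so the host response to either treatment is limited in this model. Huh-7 is the cell line label of every sample, yet the titles number the line upward by group (Huh-8 with CS2164, Huh-9 with IR, Huh-10 with both), and no value here decides between them. The labels also do not say that the 3 libraries of a group are separate mice, so p-values measure the spread between libraries, which may be partly technical.

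CS2164, also named chiauranib, inhibits Aurora kinase B, which cells need to separate chromosomes and divide, and the receptor kinases of VEGF, PDGF, stem cell factor and CSF1. Ionising radiation breaks DNA and halts dividing cells. When both are given, a gene follows the additive expectation on the log2 scale if the fold change caused by CS2164 is equal in irradiated and unirradiated tumours. A negative contrast means that the combination lies below that expectation, and a positive contrast that it lies above. In bulk tumour RNA, fewer cells of a type and less RNA per cell cannot be told apart.

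The libraries held 12886607 to 16890346 counts. Markers of hepatocellular carcinoma were high in all of them, with ALB, which encodes albumin, at 12542 to 25345 CPM, the count scaled to the library's total, and AFP at 9714 to 21797. Markers of host cell types, 61 genes in all of which 12 had no read in any library, took at most 0.0267% of a library. These are human genes while the host is a mouse, and the handling of mouse reads is not stated. The share therefore does not measure how many host cells the tumours held. Control replicate 2 and CS2164 replicate 1 stood apart from their group mates, with a mean Spearman correlation across genes of 0.979 and 0.973 to them, against 0.994 between those mates in either group. The contrast followed gene properties: across 13501 genes its Spearman rho was -0.394 with GC content and -0.265 with length, and its median fell from 0.29 in the lowest of 4 equal classes of GC content to -0.20 in the highest. The part of these library and GC differences in the results below was not tested beyond the refits that are given beside them.

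Many genes passed the threshold with CS2164 in unirradiated tumours, and none did in irradiated ones. Without radiation, 2669 genes (19.7% of those tested) were called with CS2164, and 1409 rose and 1260 fell (10.4% and 9.32%, edgeR quasi-likelihood test, Benjamini-Hochberg adjusted p under 0.05). With radiation, CS2164_IR against IR gave 0 calls in edgeR, DESeq2, limma voom and limma-trend, and 331 genes at an unadjusted p under 0.05 (2.45%), 243 higher (1.8%) and 88 lower (0.651%). The median standard error was 0.19 log2 in each setting, but both came from an estimate of the spread shared by all groups. It therefore does not show that the spread within the compared groups was alike. Groups did not overlap for 36.4% of genes without radiation and for 9.5% with it. The number called without radiation fell to 621 when control replicate 2 was left out, to 1676 without CS2164 replicate 1, to 963 without both, and to 285 when control and CS2164 were fitted alone. The count with radiation was 0 in all of these refits, and 1 in a refit without CS2164_IR replicate 2. With upper-quartile scaling the unirradiated calls split into 1131 higher and 1543 lower.

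The test of the difference itself called no gene. In edgeR 0 of 13521 genes (0%) passed for the contrast, and the lowest adjusted p was 0.0839, while 2732 genes (20.2%) had an unadjusted p under 0.05, 1293 with a positive contrast (9.56%) and 1439 with a negative one (10.6%). Limma voom and limma-trend also called 0. DESeq2 called 639 genes, 215 positive and 424 negative, and edgeR without the filter on low counts called 60. The median standard error of the contrast was 0.27 log2, larger than that of either response because 4 groups enter it. Thus no gene could be assigned by the edgeR test to a response only without radiation, only with radiation, or in opposite directions, and the genes below are described by their values. A threshold of 0.1 on the adjusted p was met by 19 genes with a positive contrast and 90 with a negative one.

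The genes called in unirradiated tumours centred near no response in irradiated tumours, a comparison of 2 pairs of groups that share no library. The 1409 genes that rose had a median log2 change of 0.67 without radiation and 0.00 with it, and 717 of them (50.9%) kept the positive sign. The 1260 genes that fell had medians of -0.68 and -0.04, and 764 (60.6%) kept the negative sign. Changes of at least 1 log2 were found for 191 of the rising genes without radiation and for 5 with it. Over all tested genes, 585 and 119 changed by that much in either direction. Genes chosen for passing a threshold have overstated changes in the libraries that chose them. Without the 2 distant libraries, 624 rising genes had medians of 0.57 and 0.01 and 339 falling genes -0.53 and -0.06. In that refit 319 of the rising genes (51.1%) and 237 of the falling genes (69.9%) kept their sign. The falling genes thus leaned slightly the same way with radiation. Across all genes the Spearman rho between the 2 responses was 0.093, given as a description, as genes are not independent.

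By library, the irradiated tumours lay near each other whether or not CS2164 was given. Relative to the control mean, the genes that rose stood at medians of 0.18, -0.29 and 0.13 in the control libraries, 0.86, 0.58 and 0.63 in CS2164, 0.10, 0.25 and 0.27 in IR, and 0.20, 0.25 and 0.18 in CS2164_IR. The values for control and CS2164 chose these genes, and all levels here are taken relative to control, so only the difference between IR and CS2164_IR is free of that choice. Those groups overlapped each other. The genes that fell mirrored this, at -0.10, -0.23 and -0.31 in IR and -0.28, -0.26 and -0.20 in CS2164_IR. The median absolute log2 difference between group means was 0.110 between IR and CS2164_IR and 0.319 between control and CS2164.

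**Figure D1:**
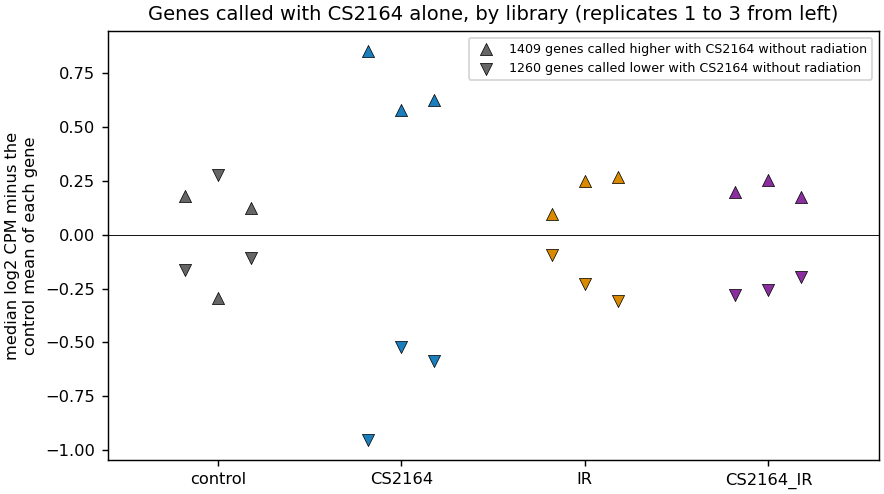
Median log2 CPM minus each gene's control mean (y axis) in each of 12 libraries by group (x axis), for genes that rose (upward triangles) or fell (downward triangles) with CS2164 without radiation. The IR and CS2164_IR libraries overlap at 0.10 to 0.27 and -0.10 to -0.31; the control and CS2164 values chose the genes, so the distance of either irradiated group from them is no result.

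**Figure D2:**
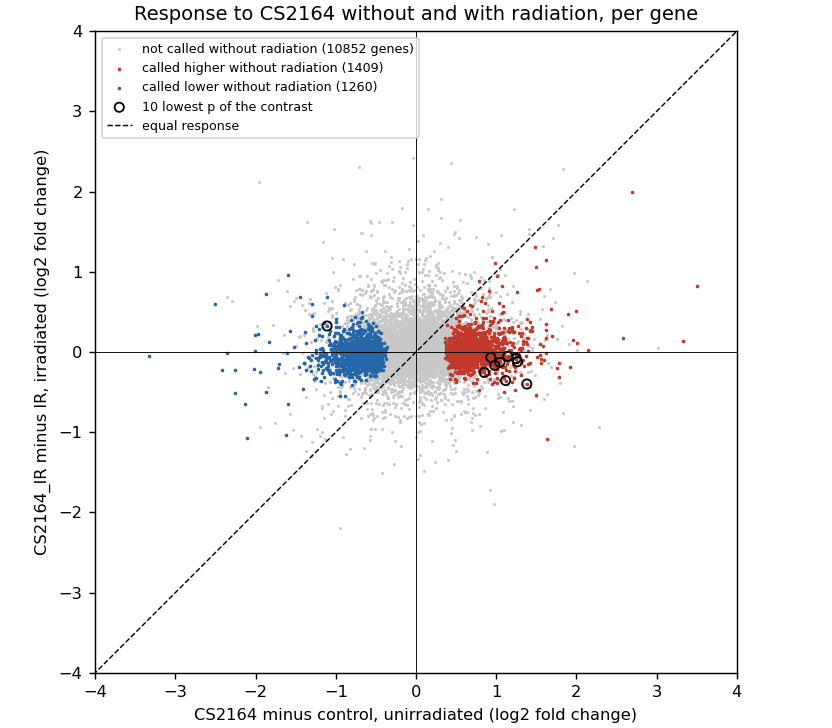
Each point is 1 of 13521 tested genes, with the log2 fold change of CS2164 in unirradiated tumours on the x axis and in irradiated tumours on the y axis; 1 gene lies outside the axes. Genes called without radiation (red, blue) lie along the horizontal line of no response with radiation rather than on the dashed line of equal response, and circles mark the 10 genes with the lowest p of the contrast.

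The 10 genes with the lowest p of the contrast were mostly raised by CS2164 without radiation: 9 were higher with CS2164 than in control and 1 was lower. The CS2164_IR and IR libraries overlapped in all of them but HYOU1 and ADAMTS9, where CS2164_IR lay below IR. All 10 had an adjusted p of 0.0839. IGF2R, the receptor that carries lysosomal enzymes and removes the growth factor IGF2 (ENSG00000197081, chromosome 6, 159969099 to 160113507 in GRCh38), stood at 235, 152 and 213 CPM in control, 545, 440.3 and 458 with CS2164, 219, 247 and 257 with IR and 198, 241 and 224 with both. All 3 CS2164 libraries lay above every other library. Its contrast was -1.39 ± 0.23 (95% interval -1.86 to -0.91), made of a response of 1.26 ± 0.16 without radiation and -0.12 ± 0.16 with it. Additive effects would have put the combination at 579 CPM, against a measured 221 ± 21.6.

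NOTCH2, a receptor of the Notch pathway through which neighbouring cells signal (chromosome 1, 119911553 to 120069626), stood at 123, 86.8 and 127 CPM in control, 270.2, 231 and 244 with CS2164, 104, 125 and 132 with IR and 117, 121 and 108 with both. Again the 3 CS2164 libraries stood apart from the other 9, and the contrast was -1.20 ± 0.22. LRP10, a member of the LDL receptor family (chromosome 14, 22871613 to 22881580), had 55.5, 41.1 and 50.5 CPM in control, 151, 105 and 93.0 with CS2164, 53.4, 64.7 and 70.1 with IR and 61.0, 66.3 and 50.5 with both, a contrast of -1.33 ± 0.26. HYOU1, a chaperone of the endoplasmic reticulum, measured 147, 107 and 143 CPM in control, 274, 225 and 218 with CS2164, 147, 166 and 149 with IR and 123, 145 and 119 with both. The IR libraries of HYOU1 lay above those of CS2164_IR without overlap, and its contrast was -1.11 ± 0.21.

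ADAMTS9, a secreted protease that cuts proteoglycans, was at 10.8, 8.86 and 10.6 CPM in control, 23.4, 24.04 and 18.3 with CS2164, 16.3, 18.7 and 17.7 with IR and 10.0, 15.7 and 15.3 with both. Here the IR libraries also lay above control without overlap, so the combination, with an additive expectation of 38.1 CPM, sat below both single treatments (contrast -1.47 ± 0.27). SMIM30, which encodes a small membrane protein, was the gene with a positive contrast: 37.5, 58.4 and 36.2 CPM in control, 17.4, 21.6 and 22.3 with CS2164, 33.8, 26.6 and 26.6 with IR and 35.0, 32.3 and 41.6 with both. CS2164 libraries were the lowest, and the contrast was 1.43 ± 0.27. TNS3, a tensin of focal adhesions, SALL2, a zinc finger transcription factor, and HEG1, a membrane protein of cell junctions, had contrasts of -1.15 ± 0.22, -1.17 ± 0.21 and -1.001 ± 0.20. NOMO3, a protein of the endoplasmic reticulum membrane, had -1.78 ± 0.32, but near-identical copies of this gene exist and their reads could be split in the counting.

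**Figure D3:**
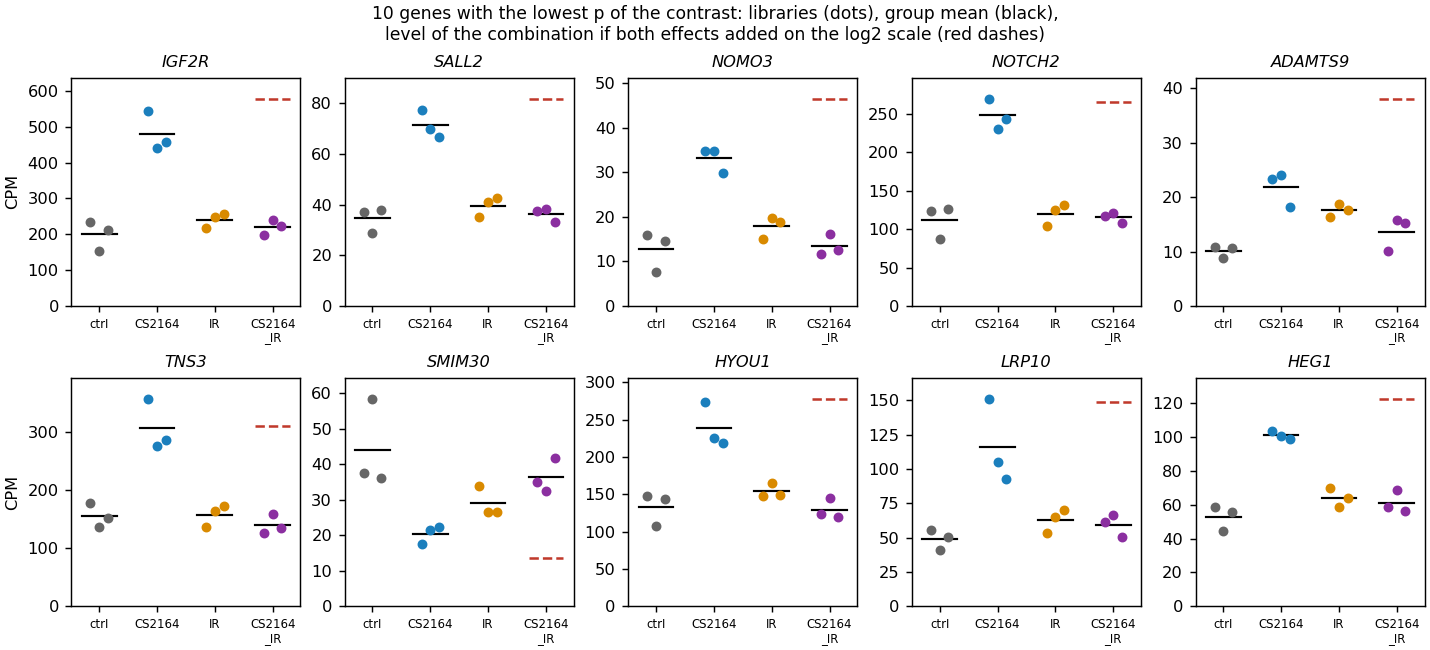
CPM (y axes, from 0) of the 10 genes with the lowest p of the contrast in each library (dots) by group (x axes), with group means as black bars. Red dashes give the level of the combination if both effects had added on the log2 scale, such as 579 CPM for IGF2R. In 9 genes the CS2164_IR libraries lie below the dashes and in SMIM30 above. The p of the contrast chose these genes, so their distance from the dashes is no result.

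The 107 genes named by the rule came from these 10, from 50 gene lists and from 8 genes always looked up. Over all tested genes 10.4% rose and 9.32% fell with CS2164 without radiation. With radiation 0 were called, so a count of 0 there marks no list. The contrast was positive for 9.56% and negative for 10.6% of all tested genes at an unadjusted p under 0.05. The counts of each list are to be read beside these shares. Most members named with the lists were picked by their lowest p of the contrast. Their contrasts and separated libraries are thus descriptions too, and likely overstated. The LDL receptor family had the lowest median contrast of the lists, -0.64 over 19 tested genes of 19 listed, against 0.04 over all tested genes. These receptors take up lipoproteins and other ligands, and the list also holds sortilins. Without radiation 8 of 19 rose and 0 fell, with radiation 0 were called, and 9 had an unadjusted p under 0.05 for the contrast, all negative, with 0 called. LRP1, a large endocytic receptor, was at 529, 324 and 501 CPM in control, 1955, 1186 and 1263 with CS2164, 421, 541 and 630.2 with IR and 651, 577 and 601 with both. Every CS2164 library was above all 9 others, for a contrast of -1.50 ± 0.30; LRP1 overlaps an exon of STAT6. The median contrast of the LDL receptor family kept its sign in all 23 refits, between -0.83 and -0.43, and 8 members rose without the 2 distant libraries, but 5 without control replicate 2 alone.

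Receptor tyrosine kinases, which receive growth factor signals, showed a median contrast of -0.43 over 27 tested of 48 listed genes. Without radiation 12 rose and 0 fell, among them EGFR, ERBB2, ERBB3, IGF1R, INSR, MET, EPHA2, EPHB2, EPHB4 and DDR1, names given after their values were seen, beside TYRO3 and IGF2R, which is listed here though it is no kinase. In the contrast 11 had an unadjusted p under 0.05, all negative. TYRO3 was at 66.8, 51.0 and 63.6 CPM in control, 116, 90.7 and 85.7 with CS2164, 66.0, 64.5 and 72.3 with IR and 63.4, 67.3 and 68.3 with both, a contrast of -0.72 ± 0.21. The median was 0.55 without radiation and 0.05 with it. It depended on the gene properties: after removal of each library's GC and length trends the contrast median was -0.11 and 4 genes rose without radiation, and 6 rose without control replicate 2. Among integrins and cadherins, which hold cells to matrix and to each other, 12 of 37 rose and 1 fell (5 and 0 without control replicate 2), with a median contrast of -0.32 that was -0.04 after removal of the trends and of the 2 distant libraries. DCHS1 and FAT1, large protocadherins, had contrasts of -1.90 ± 0.44 and -1.099 ± 0.28. Of 28 Notch pathway genes 6 rose and 1 fell, and NCSTN, a subunit of the protease that releases the Notch signal, which overlaps COPA, had -0.73 ± 0.18.

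Extracellular matrix genes formed another group with a response without radiation. Among collagens, laminins and basement membrane genes, 36 of 50 listed were tested. Without radiation 14 rose with CS2164 and 0 fell, against 10.4% and 9.32% of all genes. With radiation 0 were called, as for all genes. The median contrast was -0.49, with 13 genes negative and 0 positive at an unadjusted p under 0.05. AGRN, the basement membrane proteoglycan agrin, stood at 494, 343 and 443 CPM in control, 1303, 846 and 791 with CS2164, 469, 573 and 653 with IR and 516, 584 and 584 with both. Its contrast was -1.21 ± 0.27, against -0.82 ± 0.19 for LAMC1, a laminin chain present in most basement membranes. FN1, fibronectin, was at 8685, 6567 and 8187 CPM in control, 19291, 14481 and 15793 with CS2164, 6465, 7735 and 7531 with IR and 6929.8, 7968 and 8529 with both. CS2164 libraries stood above all others and the irradiated groups overlapped; the contrast of FN1 was -0.97 ± 0.25 (adjusted p of 0.101), and additivity would give 15317 CPM. By list mean relative to control, these matrix genes were at 0.03, -0.17 and 0.14 in control, 0.76, 0.39 and 0.67 with CS2164, 0.41, 0.33 and 0.39 with IR and 0.67, 0.40 and 0.54 with both. The IR libraries lay above control here, and the CS2164_IR libraries overlapped those of both IR and CS2164. Without control replicate 2, 8 matrix genes rose, and the median contrast shrank to -0.14 after removal of GC and length trends.

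Markers of fibroblasts and pericytes, cells that make matrix, were sparse, and lower in control than in the 3 treated groups. Their summed share was 0.00802% ± 0.000758 in control, 0.0125% ± 0.00264 with CS2164, 0.0133% ± 0.00229 with IR and 0.0125% ± 0.00078 with both, with 2 of 14 markers at 0 in all libraries. COL1A1, a defining marker that is also in the matrix list, was at 0.355, 0.377 and 0.497 CPM in control, 1.31, 1.23 and 1.26 with CS2164, 0.634, 1.63 and 1.37 with IR and 0.716, 1.32 and 1.32 with both. Control libraries were the lowest and the treated groups overlapped. Nothing used here states whether mouse reads were separated, so their part in the matrix counts was not tested.

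Of 25 tested lipogenesis genes, which serve fatty acid synthesis, 9 rose with CS2164 and 0 fell without radiation, against 0 called with it, and the median contrast was -0.19. FASN, the fatty acid synthase, was at 588, 395 and 612 CPM in control, 1493, 1083 and 941 with CS2164, 585, 714 and 769 with IR and 633, 714 and 589.7 with both. ACACA, the acetyl-CoA carboxylase that feeds it, was at 53.8, 38.7 and 59.1 CPM in control, 86.7, 98.8 and 89.8 with CS2164, 65.4, 68.9 and 67.9 with IR and 64.3, 57.8 and 58.1 with both. For both genes the CS2164 libraries were the highest; the irradiated groups overlapped for FASN, and those of IR lay above CS2164_IR for ACACA. The contrasts were -1.24 ± 0.27 and -1.03 ± 0.21. Without the 2 distant libraries 8 of the list rose and 2 were called for the contrast, and after removal of GC and length trends the median contrast was -0.04. In cholesterol synthesis the 27 tested genes had a median response of 0.15 in both settings, though 8 rose and 1 fell without radiation and 0 were called with it. Its members went both ways: 4 had a positive and 7 a negative contrast at an unadjusted p under 0.05, 40.7% of them against 20.2% of all genes. Glycolysis had a median contrast of -0.46 over 18 genes, but 2 rose without radiation and 1 had an unadjusted p under 0.05 for the contrast. That median was -0.16 without CS2164 replicate 1, which stood at a list mean of 0.92 against 0.21 and -0.02 in its mates, and -0.23 without the 2 distant libraries.

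Among the lists with the highest median contrasts were ribosomes, mitochondrial respiration and the proteasome, the machinery for making protein, making ATP and degrading protein, whose called genes mostly fell with CS2164 without radiation. Of 78 tested cytosolic ribosomal protein genes 26 fell and 0 rose without radiation, against 9.32% and 10.4% of all genes. With radiation 0 were called, as for all genes. Vertebrate ribosomal protein transcripts are known to start with a run of pyrimidines, by which their translation follows growth signals. To show the bases around the annotated start, 5 of these genes called lower without radiation are printed in transcribed orientation. They were picked from the called genes that hold CTTTC or CTTTT within 20 bases of the start, so its presence in all 5 is no result. Each window has 30 bases before and 20 from the RefSeq start (GRCh38.p14). Capitals mark the first CTTTC or CTTTT at or after the start.
RPL24, chr3:101686699-101686748, minus strand: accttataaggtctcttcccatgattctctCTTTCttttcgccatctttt
RPL9, chr4:39458903-39458952, minus strand: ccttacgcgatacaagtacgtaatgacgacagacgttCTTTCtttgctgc
RPS13, chr11:17077648-17077697, minus strand: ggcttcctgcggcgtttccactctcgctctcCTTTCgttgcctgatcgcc
RPL22, chr1:6199576-6199625, minus strand: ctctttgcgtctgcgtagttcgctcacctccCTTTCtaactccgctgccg
RPS24, chr10:78033833-78033882, plus strand: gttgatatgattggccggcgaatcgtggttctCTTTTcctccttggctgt
In RPL9 the motif begins 7 bases after the annotated start, behind bases that are not all pyrimidines, so its window does not show such a run at the start itself. CTTTC or CTTTT lay within 20 bases of the start, on the transcribed strand, in 43 of the 62 ribosomal protein genes matched in the RefSeq table (69.4%) and in 14 of the 19 of them called lower (73.7%), against 2626 of all 27305 windows (9.62%). On the other strand the shares were 3.23%, 5.26% and 7.37%. The called members thus held the motif in a share near that of the whole family, and nothing about its use follows from a match.

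RPL24, a protein of the large subunit, was at 333, 479.5 and 279 CPM in control, 174, 227 and 181 with CS2164, 331, 322 and 257 with IR and 254, 306 and 347 with both. The CS2164 libraries were the lowest, control replicate 2 the highest, and the irradiated groups overlapped; the contrast was 0.90 ± 0.27. RPS7, of the small subunit, had 0.87 ± 0.26. The median contrast of the cytosolic ribosomal proteins was 0.38, with 17 genes positive and 0 negative at an unadjusted p under 0.05. By list mean the libraries were at -0.20, 0.43 and -0.24 in control, -0.21, -0.40 and -0.69 with CS2164, -0.12, -0.03 and -0.19 with IR and -0.34, -0.20 and -0.07 with both. Control replicate 2 was thus far above its mates, which overlapped CS2164; without it 4 genes fell and the median contrast was 0.11. Ribosomal protein genes have many processed copies in the genome, so their counts may be split.

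Mitochondrial ribosomal proteins, 74 tested of 77, had a median contrast of 0.41, with 25 genes positive and 0 negative at an unadjusted p under 0.05. Without radiation 28 fell and 0 rose. MRPL18 was at 41.3, 56.2 and 42.4 CPM in control, 25.6, 31.3 and 26.6 with CS2164, 42.1, 42.9 and 39.6 with IR and 46.9, 42.5 and 45.9 with both. Its CS2164 libraries lay below all 9 others, with a contrast of 0.86 ± 0.21. The list means were -0.16, 0.29 and -0.13 in control, -0.43, -0.35 and -0.50 with CS2164, -0.08, -0.07 and -0.16 with IR and -0.20, -0.17 and -0.11 with both. Here the CS2164 libraries lay below every other library. Without control replicate 2 the count of falls was 6 and the median contrast 0.26.

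Nuclear genes of oxidative phosphorylation gave a median contrast of 0.42 over 75 tested genes, 22 positive and 1 negative at an unadjusted p under 0.05. Without radiation 23 fell and 1 rose, and 4 fell without control replicate 2. SDHD, a membrane anchor of succinate dehydrogenase that overlaps TIMM8B, was at 26.7, 43.3 and 26.8 CPM in control, 6.15, 17.8 and 13.6 with CS2164, 23.5, 20.2 and 19.8 with IR and 19.6, 20.3 and 28.8 with both. CS2164 libraries were the lowest and the irradiated groups overlapped, with a contrast of 1.48 ± 0.40. ATP5F1C, a subunit of ATP synthase, had a contrast of 0.80 ± 0.23. The 13 mitochondrially encoded genes had the median 0.56, and 4 fell without radiation (0 without control replicate 2, 2 without CS2164 replicate 1). Their share of all counts was 5.596% ± 0.412 with CS2164, against 7.82% ± 0.991 in control, 8.78% ± 1.08 with IR and 9.25% ± 1.35 with both. MT-CO3, which encodes part of cytochrome c oxidase, was at 7653, 10483 and 8619 CPM in control, 4382, 5783 and 5408 with CS2164, 9909.9, 7804 and 9181 with IR and 12116, 8004 and 10416 with both. Its CS2164 libraries also lay below all others. This list depended on gene properties: after removal of GC and length trends its median contrast was 0.11 and its median response without radiation turned from -0.45 to 0.06.

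Proteasome genes had a median contrast of 0.36 over 36 genes, 13 positive and 2 negative at an unadjusted p under 0.05. Without radiation 17 fell and 0 rose, and 4 fell without control replicate 2. PSMA3, a subunit of the core particle, was at 146, 196 and 148 CPM in control, 80.4, 102 and 101 with CS2164, 159.8, 138 and 128 with IR and 139, 136 and 148 with both. The contrast was 0.77 ± 0.21, with CS2164 libraries at the bottom and both irradiated groups overlapping control. PSMG2, an assembly chaperone, had 1.07 ± 0.26. For mitochondrial ribosomal proteins, nuclear oxidative phosphorylation and proteasome the median contrast was 0.14, 0.13 and 0.09 after removal of the trends and of the 2 distant libraries, against 0.02 over all genes.

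**Figure D4:**
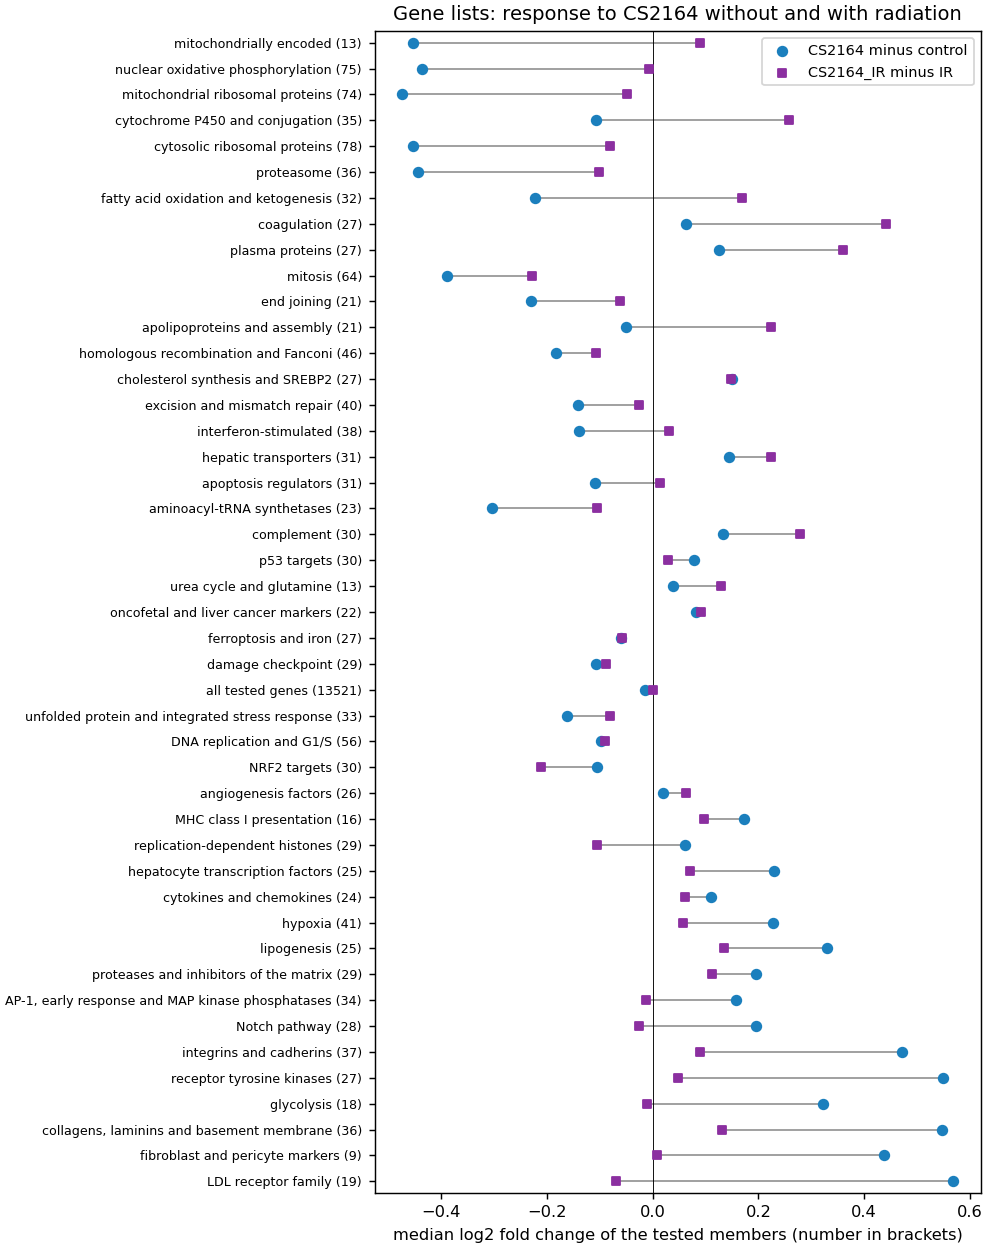
Median log2 fold change with CS2164 over the tested members of each list with at least 5 of them (x axis), in unirradiated (blue circles) and irradiated (purple squares) tumours, with lists ordered by the median contrast. Long grey lines at the top and bottom mark lists whose 2 medians differ most, such as the LDL receptor family at 0.57 and -0.07; cholesterol synthesis has medians of 0.15 in both, though 4 of its genes had a positive and 7 a negative contrast at an unadjusted p under 0.05.

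The reverse pattern, a response to CS2164 in irradiated tumours only, was not called for any gene, in edgeR or in DESeq2. Among the lists with values leaning that way were secreted liver proteins and cytochrome P450 genes. Fatty acid oxidation and ketogenesis also had a positive median contrast, 0.32 over 32 tested genes, from medians of -0.22 without radiation and 0.17 with it. Its calls lay without radiation, 2 higher and 4 lower, against 10.4% and 9.32% of all genes. With radiation 2 of its genes were higher at an unadjusted p under 0.05 and 0 were called. Coagulation factors had a median response of 0.06 without radiation and 0.44 with it over 27 genes, and 10 had an unadjusted p under 0.05 with radiation, all higher, where 1.8% of all genes did. For plasma proteins the medians were 0.13 and 0.36, with 9 of 27 higher at an unadjusted p under 0.05. For apolipoproteins and assembly factors they were -0.05 and 0.22, with 6 of 21. The calls themselves lay without radiation: 4 apolipoprotein and assembly genes were called higher there and 0 lower. For coagulation 2 were called higher and 1 lower, and for plasma proteins 1 and 1, against 10.4% and 9.32% of all genes. With radiation 0 were called in these lists. Cytochrome P450 genes, which oxidise drugs and steroids in liver, had medians of -0.11 and 0.26 over 35 tested genes, with 0 called in either setting. FGA, the alpha chain of fibrinogen, was at 1901, 2141 and 2264 CPM in control, 1462, 1914 and 2293 with CS2164, 1462, 1477 and 1436 with IR and 3159, 1564 and 2132 with both. The irradiated groups did not overlap, and its response was -0.15 ± 0.21 without radiation and 0.65 ± 0.21 with it (adjusted p of 1), a contrast of 0.80 ± 0.30 with an adjusted p of 0.163.

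TTR, the carrier of thyroid hormone and retinol-binding protein, stood at 519.7, 621 and 551 CPM in control, 435, 452 and 507 with CS2164, 564, 564 and 472 with IR and 1396, 559.6 and 735 with both. CS2164_IR replicate 1 was far above all others, replicate 3 above IR, and replicate 2 within the IR range. APOA1, the main protein of HDL, was at 1333, 1480.5 and 961 CPM in control, 958, 947 and 1028 with CS2164, 685, 1006 and 790.2 with IR and 2344, 933 and 1355 with both. ALB was at 20584, 23802 and 19985 CPM in control, 12542, 17748 and 21688 with CS2164, 14569, 13494 and 13517 with IR and 25345, 14413 and 17604 with both. In both genes replicate 1 of CS2164_IR was the highest library, replicate 3 lay above IR and replicate 2 within the IR range. The contrasts were 1.03 ± 0.33 for TTR, 1.26 ± 0.36 for APOA1 and 0.77 ± 0.32 for ALB.

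The same library led the lists as wholes. By list mean, coagulation was at 0.00, -0.03 and 0.03 in control, -0.09, 0.00 and 0.12 with CS2164, -0.42, -0.36 and -0.34 with IR and 0.22, -0.33 and -0.05 with both. Plasma proteins were at -0.04, 0.04 and 0.00 in control, 0.02, 0.07 and 0.20 with CS2164, -0.52, -0.34 and -0.23 with IR and 0.32, -0.30 and -0.06 with both. In both lists all IR libraries were below control, and CS2164_IR ranged from near the IR levels in replicate 2 to above control in replicate 1. The median contrast of both lists was positive in all 23 refits, between 0.21 and 0.39 for coagulation and between 0.05 and 0.45 for plasma proteins. Plasma proteins stood at 0.23 with all libraries, 0.05 without CS2164_IR replicate 1, 0.15 without IR replicate 1, 0.38 without IR replicate 3 and 0.45 without CS2164_IR replicate 2.

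**Figure D5:**
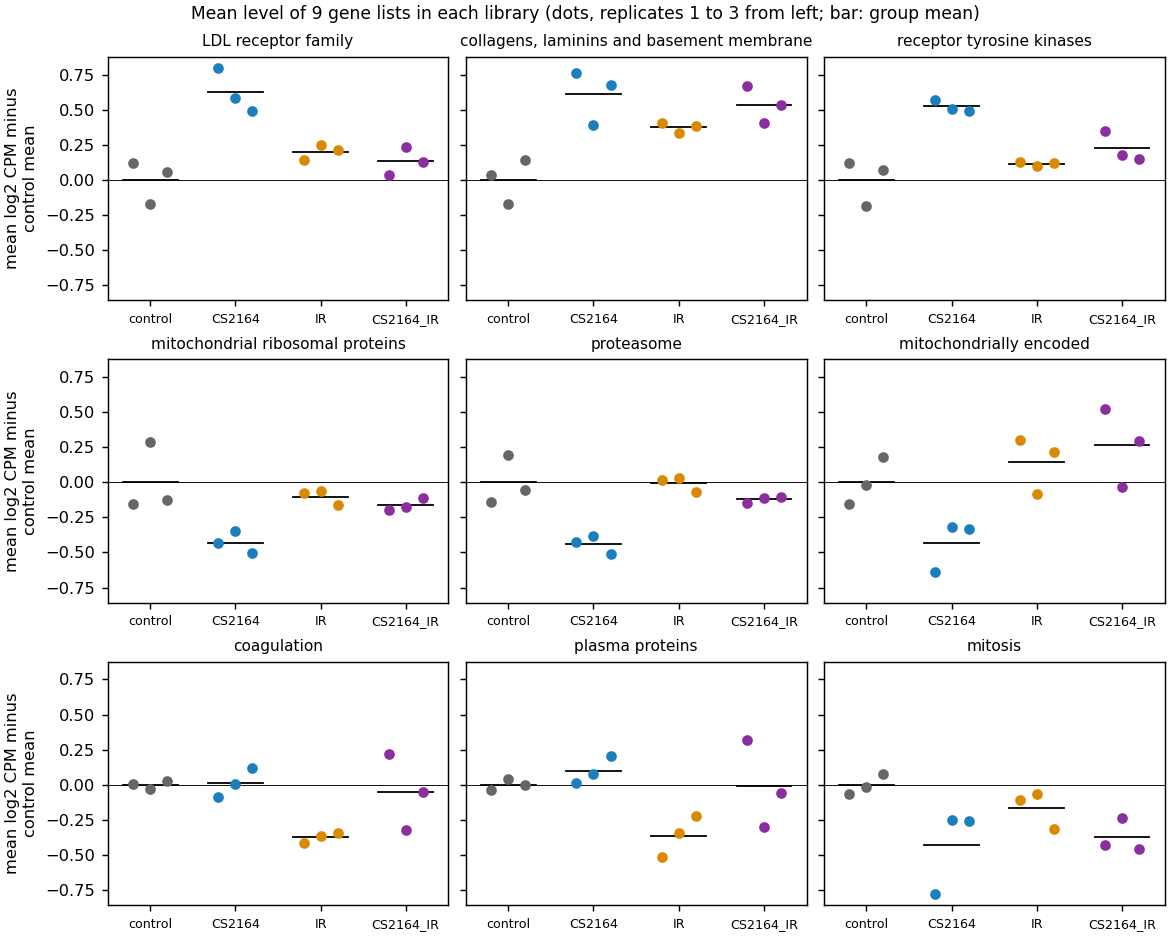
Mean log2 CPM of the list members minus their control mean (y axis) in each library (dots, replicates 1 to 3 from left) by group (x axis) for 9 lists, with group means as bars. In the top and middle rows the CS2164 libraries stand apart from IR and CS2164_IR in all but the matrix list; for coagulation and plasma proteins the CS2164_IR libraries spread from -0.33 to 0.22 and from -0.30 to 0.32.

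Mitotic genes, which act with the Aurora kinase that CS2164 inhibits, had negative median responses to CS2164 in both settings. Of 64 tested genes 26 fell and 1 rose without radiation, against 9.32% and 10.4% of all genes. With radiation 0 were called, as for all genes, but the medians were -0.39 without radiation and -0.23 with it. The median contrast was 0.21, and 0.02 after removal of GC and length trends, where the medians of the 2 responses were -0.22 and -0.21. CCNB1, the cyclin of mitotic entry, was at 136, 166 and 155 CPM in control, 71.3, 97.9 and 88.0 with CS2164, 132, 130.1 and 110.0 with IR and 102, 109 and 105 with both. All CS2164 libraries were below control and all CS2164_IR libraries below IR, with responses of -0.83 ± 0.14 and -0.23 ± 0.14 and a contrast of 0.60 ± 0.20. AURKB itself was at 77.3, 77.2 and 72.6 CPM in control, 58.7, 53.5 and 51.2 with CS2164, 66.7, 83.1 and 71.5 with IR and 73.5, 65.8 and 59.7 with both. It fell without radiation (-0.48 ± 0.13, adjusted p of 0.022); with radiation the response was -0.15 ± 0.13 with overlap between groups, and the interval of the contrast ran from -0.07 to 0.72. By list mean mitosis was at -0.06, -0.01 and 0.08 in control, -0.78, -0.25 and -0.26 with CS2164, -0.11, -0.07 and -0.31 with IR and -0.43, -0.24 and -0.46 with both. CS2164 replicate 1 was the lowest library, and 9 mitotic genes fell without the 2 distant libraries, 7 without control replicate 2 and 15 without CS2164 replicate 1.

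DNA repair and p53 target lists had median contrasts between 0.04 and 0.17, and several of these signs turned on refitting. Homologous recombination ran from -0.06 to 0.22 over 23 refits and was negative in 4, -0.06 both without CS2164 replicate 1 and after removal of GC and length trends. Damage checkpoint (-0.09 to 0.12) was negative in 6 and p53 targets (-0.06 to 0.11) in 3. In homologous recombination 3 of 46 genes had a positive and 4 a negative contrast at an unadjusted p under 0.05, in end joining 3 and 2 of 21, and among p53 targets 4 and 5 of 30. These are 15.2%, 23.8% and 30% of the lists, against 20.2% of all tested genes. PRKDC, the DNA-dependent protein kinase of end joining, was at 197, 152 and 204 CPM in control, 248, 309.9 and 311 with CS2164, 187, 204 and 172 with IR and 159.6, 206 and 148 with both. The CS2164 libraries lay above all others, and the contrast was -0.78 ± 0.22. RPS27L, a p53 target that encodes a ribosomal protein, ran the other way, at 73.5, 84.3 and 68.4 CPM in control, 30.7, 47.4 and 47.9 with CS2164, 76.1, 70.9 and 61.7 with IR and 84.4, 65.7 and 84.4 with both. CS2164 libraries were its lowest, with a contrast of 1.01 ± 0.24. CDKN1A and MDM2, the p53 targets for arrest and feedback, had contrasts of -0.24 ± 0.26 and 0.38 ± 0.24, and intervals of -0.78 to 0.30 and -0.14 to 0.89 that include 0.

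Read from the side of radiation, the contrast equals the response to IR with CS2164 minus that without it. IR against control called 59 genes (0.436%), 28 higher (0.207%) and 31 lower (0.229%), and CS2164_IR against CS2164 called 1310 (9.69%), 511 higher (3.78%) and 799 lower (5.91%). The first count ran from 0, without IR replicate 1, to 458, without CS2164 replicate 1; leaving out any other library but CS2164 replicate 3 or CS2164_IR replicate 1 gave 5 to 28. The second was 2049 without control replicate 2, 841 and 848 without CS2164 replicates 2 and 3, and 355, 854 and 310 without CS2164_IR replicates 1, 2 and 3. The 511 genes that were higher had a median of 0.72 there and 0.12 in tumours without CS2164, and the 799 lower genes -0.67 and -0.05. With upper-quartile scaling the 1364 calls of the second comparison split into 750 higher and 614 lower.

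A few named genes had a called response to IR alone. FOSL1, a subunit of the AP-1 transcription factor, was at 0.497, 0.314 and 0.311 CPM in control, 0.850, 1.08 and 0.441 with CS2164, 4.69, 2.17 and 3.24 with IR and 1.59, 1.60 and 1.88 with both. All IR libraries exceeded all CS2164_IR libraries, and both groups exceeded control and CS2164. The response to IR was 3.16 ± 0.46 without CS2164 (adjusted p of 0.00614) and 1.103 ± 0.43 with it (0.103), a contrast of -2.05 ± 0.64 that did not pass. FOSL1 was at most 0.497 CPM in control, so the response without CS2164 and the contrast rest on few control reads. ADAMTS1, a protease that restrains vessel growth, was at 36.1, 32.5 and 30.7 CPM in control, 50.8, 49.7 and 47.3 with CS2164, 59.9, 65.1 and 62.6 with IR and 45.7, 57.8 and 52.8 with both. It was raised by each treatment alone (0.57 ± 0.14 for CS2164 and 0.92 ± 0.14 for IR), and the combination stayed below the IR libraries, a contrast of -0.84 ± 0.19 with an adjusted p of 0.0839. IFIT1, an interferon-induced gene, was at 10.8, 11.8 and 12.0 CPM in control, 4.58, 7.72 and 7.43 with CS2164, 6.03, 4.70 and 4.61 with IR and 6.13, 5.55 and 8.54 with both. All 9 treated libraries lay below control and overlapped each other. It fell with each treatment alone (-0.81 ± 0.23 and -1.17 ± 0.24), and the combination lay above the additive expectation of 2.92 CPM by a contrast of 1.21 ± 0.34.

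Settings that did call genes for the contrast pointed to overlapping sets. Without the 2 distant libraries 162 genes passed, 147 of them negative, and 80 passed after removal of GC and length trends. Of the 80, 55 were among the 162. With DESeq2, no filter on low counts, and both of these changes alone or together, 31 genes passed in every one of the 5 refits, and 9 of the 10 genes described first were among them. SMIM30 was the other, and it passed without the 2 distant libraries. These refits reuse the libraries whose p-values chose the 10 genes, and some were chosen after seeing the data, so the overlap is no independent support. Fits that called no gene, such as limma voom and limma-trend, are not part of this count. The 31 also held LRP1, ACACA and TAPBP, the tapasin that loads peptides on MHC class I, at 30.7, 19.4 and 36.7 CPM in control, 88.0, 58.7 and 64.6 with CS2164, 34.9, 38.3 and 44.0 with IR and 40.5, 42.3 and 37.0 with both. Its 3 CS2164 libraries were the highest, with a contrast of -1.25 ± 0.28. Of the genes called for the contrast without the 2 distant libraries, 157 were also called for CS2164 without radiation and not with it, and 0 showed the reverse or opposite responses.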

How the data were processed

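RNA of 12 xenograft tumours was sequenced from poly-A selected, unstranded libraries, per the labels' protocols. The deposited table holds raw read counts per gene and FPKM values for each library, per the file headers; only the counts were used. The authors used HISAT2 2.1.0 and HTSeq 0.9.1 with a GRCh38 build, per the submitters' processing notes; no source used here states the annotation release or the handling of mouse reads. Groups came from the labels. Genes passing filterByExpr were tested with edgeR 4.0.16 in R 4.3.3 (TMM scaling, robust quasi-likelihood fit over all 12 libraries with 1 coefficient per group) and Benjamini-Hochberg adjustment over all tested genes, with calls at an adjusted p under 0.05; limma 3.58.1 and DESeq2 1.42.0 were alternatives. Fold changes are log2 with standard errors, and levels are CPM, given in the order of replicates 1, 2 and 3, with means ± SD (n = 3). Total counts of 12886607 to 16890346 limit the precision of low genes. Scripts were tested on simulated data.

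Named genes were the 10 with the lowest p of the contrast, up to 2 members of each list by lowest p, and AURKB, PDGFRA, CDKN1A, MDM2, ALB, AFP, FN1 and CCNB1; the rule's places for genes past the threshold were empty, and some named genes are not reported here. The members and lists were chosen with earlier results of these data known. Coordinates and overlaps are from GENCODE (GRCh38), start windows from RefSeq (GRCh38.p14). List values are medians and counts, with no test of a list. Replicate numbers showed no sign of pairing: deviations of 18 same-numbered pairs correlated at -0.372 to 0.149 across genes. The 36 other pairs correlated at -0.235 to 0.326. With 3 libraries per group this check cannot exclude a pairing. Alternatives were other scalings, filters, tools, fold thresholds and scales, a replicate block and each library left out; the refits without control replicate 2 and CS2164 replicate 1 together, and with each library's trends in GC content and length removed by splines, were chosen after seeing the data.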

Additional observations from a re-analysis of the deposited data

How the results depend on the processing

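For the contrast, 0 genes were called with RLE or upper-quartile scaling, a mean of at least 1 CPM, limma voom, limma-trend, a 2-fold minimum and the replicate block; 60 were called with no filter, 639 by DESeq2, 0 to 1 with a library left out, 162 without the 2 distant libraries, 80 with GC and length trends removed and 130 with both changes. Of these 60, 623, 0 to 1, 157, 79 and 124 were called for CS2164 without radiation only, and 0 for either other class. CS2164 calls without radiation numbered 621 to 2665 with a library left out, 285 with the compared groups alone, 320 at 2-fold, 963 without the distant libraries and 876 with both changes; with radiation, 0 to 1. For IR without CS2164 the counts were 117 with no filter, 20 with the replicate block, 30 by limma voom, 348 by DESeq2, 0 to 458 with a library left out, 138 with groups alone, 32 at 2-fold, 445 without the distant libraries, 337 with trends removed and 408 with both. For IR with CS2164 they were 310 to 2049, 834, 192, 3265, 2660 and 3126 under the last 6 of these, the 2660 being 51.9% higher against 39% in the reported fit. The median response with radiation of genes that rose or fell without it ran from -0.055 to 0.047 and from -0.083 to 0.027 with a library left out. Replicate numbers showed no sign of pairing, and the block changed no other count by over 1.5 times. Of 2565 refitted values of named genes, 134 passed the threshold where the reported fit did not, and 16 changed sign, in 5 genes: PECAM1 (-0.33 to 0.18 with a library left out, 0.086 without the distant libraries, 0.052 with trends removed, 0.19 with both), LYZ (-0.13 to 0.40 with a library left out, -0.49 with trends removed, -0.11 with both), CD8A (-3.28 to 0.18 with a library left out, 0.12 without the distant libraries, 0.056 with both), CD14 (-0.79 to 0.26 with a library left out) and PDGFRA (-0.35 to 0.024 with a library left out). Where fewer libraries or groups were fitted, fewer residual degrees of freedom remain; otherwise the cause was not tested. With 3 libraries per group and a median standard error of 0.27 for the contrast, departures from additivity could go uncalled at this depth. This was not limited to small ones: 810 genes had a contrast of at least 1 log2 in either direction, and 0 were called. The absence of calls therefore does not exclude departures of that size.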
